A study of Mus musculus with 18 samples.

Results

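The 10 genes described here are carried by mitochondrial DNA and encode subunits of the respiratory chain and of ATP synthase. They are mt-Nd1, mt-Nd2, mt-Nd4, mt-Nd5 and mt-Nd6 of complex I, mt-Cytb of complex III, mt-Co1, mt-Co2 and mt-Co3 of complex IV, and mt-Atp6 of complex V. They were picked out by symbol, with no threshold on their values but with earlier results of these data known, and all 10 were found among the 21859 rows of the count table. The table holds 3 further rows with an mt- prefix, mt-Nd3, mt-Nd4l and mt-Atp8, which are shown only for comparison.

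The libraries are bulk RNA-seq of mouse retinal pigment epithelium (RPE), the pigmented layer that serves the photoreceptors. They form 4 groups. Young (7 libraries) and Old (4 libraries) came from young and aged mice for which no vector is named. Old-Control (3 libraries) came from aged mice that received AAV2-tTA alone, and Old-OSK (4 libraries) from aged mice that received both AAV2-tTA and TRE-OSK. AAV2-tTA, an adeno-associated virus carrying the tetracycline transactivator, is thus common to the Old-Control and Old-OSK groups. The TRE-OSK vector adds Oct4, Sox2 and Klf4 behind a promoter that tTA switches on. Strain, age in months, vector dose, the promoter of tTA and the share of cells reached are not given in the sources used here. The labels do not say whether the libraries of a group came from separate animals, so p-values measure the spread between these libraries. Poly(A) RNA was made into full-length cDNA (SMART-Seq v4) and cut by a transposase (Nextera XT), a procedure that does not mark the strand.

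Complex I takes electrons from NADH, complex III passes them to cytochrome c, complex IV hands them to oxygen, and complex V uses the resulting proton gradient to make ATP. Mitochondrial DNA encodes a few core subunits of these machines, and the nucleus encodes the rest. Its genes are read as long transcripts from each strand that are cut into single messages, so that message levels depend on cutting and decay as well as on transcription. RPE cells rely heavily on mitochondrial respiration, which leaves glucose for the photoreceptors.

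Total counts lay between 18104828 and 32348136 per library. Of the 18 libraries, 6 carry a letter M in their names that the labels do not explain: Young replicates 5, 6 and 7, Old-Control replicates 2 and 3, and Old-OSK replicate 4. These 6 had between 4040 and 5493 counts on 4 Y-linked genes, against at most 93 in the other 12. Markers of RPE (10 genes, none at 0 in any library) summed to 39320 to 65300 CPM (counts per library total after TMM, a scaling that offsets differences in RNA composition) in Young, 26910 to 47210 in Old, 20180 to 62560 in Old-Control and 15150 to 29750 in Old-OSK. Markers of rod photoreceptors (11 genes, none at 0) summed to 456.1 to 3439 CPM in Young, 2427 to 8230 in Old, 1900 to 20250 in Old-Control and 3191 to 17040 in Old-OSK. Old replicate 4 and Old-Control replicate 2 had the lowest RPE sums of their groups, 26910 and 20180 CPM. In bulk tissue, fewer cells of a type and less RNA per cell cannot be told apart.

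Several of these genes have copies in the nuclear genome, and their sequences bear on what a read count can mean. In the GENCODE M21 annotation of GRCm38, a stretch of chromosome 1 holds pseudogenes that match mt-Co2 (Gm28661, chr1:24614885-24615565), mt-Atp6 (Gm10925, chr1:24613974-24614651), mt-Co3 (Gm28437, chr1:24613189-24613971) and the start of mt-Nd4 (Gm28439, chr1:24611535-24612410), all on the minus strand. Gm28661 matched mt-Co2 over 681 bases, Gm10925 matched mt-Atp6 over 678, Gm28437 matched mt-Co3 over 783 and Gm28439 matched mt-Nd4 over 876, each with 0 mismatches. The first 90 bases of mt-Co3 (chrM:8607-8696, plus strand) and of Gm28437 (chr1:24613882-24613971, minus strand) are shown because they are letter for letter the same, so that no read inside them can be placed by its sequence.
mt-Co3: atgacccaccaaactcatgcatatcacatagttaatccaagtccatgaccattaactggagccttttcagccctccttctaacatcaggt
Gm28437: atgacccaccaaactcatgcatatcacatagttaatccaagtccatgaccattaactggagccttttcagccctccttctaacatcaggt

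Other copies differ at scattered bases. Gm29216 (chr1:24615706-24616197, minus strand) matched 492 bases of mt-Co1 with 6 mismatches, and Gm13340 (chr2:22588103-22589647, minus strand) matched all 1545 with 37. The stretch below, chrM:6381-6470 of mt-Co1 and chr1:24616108-24616197 of Gm29216, holds all 6 differences with Gm29216, written in capitals, at its left end. The remaining bases of the stretch are the same in both genes.
mt-Co1: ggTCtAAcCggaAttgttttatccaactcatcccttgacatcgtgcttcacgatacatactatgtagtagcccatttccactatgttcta
Gm29216: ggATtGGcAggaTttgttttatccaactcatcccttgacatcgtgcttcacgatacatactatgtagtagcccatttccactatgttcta

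In mt-Nd2 the copy is more distant. Gm13339 (chr2:22590024-22590533, minus strand) matched 510 bases of mt-Nd2 at 96.67% identity. The stretch chrM:4685-4774 of mt-Nd2 and its counterpart chr2:22590201-22590290 differ at 6 of 90 bases, again in capitals and here spread along the stretch.
mt-Nd2: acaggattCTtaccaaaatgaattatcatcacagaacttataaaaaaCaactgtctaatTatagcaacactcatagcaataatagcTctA
Gm13339: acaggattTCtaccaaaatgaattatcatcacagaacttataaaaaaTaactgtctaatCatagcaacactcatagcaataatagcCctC

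A second point concerns mt-Nd5 and mt-Nd6, which lie on opposite strands and share their last 14 bases. The ends of both genes are printed 5′ to 3′, mt-Nd5 as chrM:13506-13565 on the plus strand and mt-Nd6 as chrM:13552-13611 on the minus strand, with the overlap in capitals. The last 14 bases of mt-Nd6 are the reverse complement of the last 14 of mt-Nd5. Since the kit does not mark the strand, reads from mt-Nd6 and from any RNA of the opposite strand cannot be told apart. This holds over the whole of mt-Nd6 and not only over the 14 shared bases.
mt-Nd5: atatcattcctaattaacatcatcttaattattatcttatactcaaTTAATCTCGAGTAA
mt-Nd6: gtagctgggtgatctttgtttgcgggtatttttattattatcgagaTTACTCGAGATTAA

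The levels of the 10 genes lay in 2 ranges far apart. Per kilobase of coding length in Young RPE, mt-Co1, the catalytic core of complex IV, stood highest at 14400 ± 1800 CPM per kb (SD, n = 7), followed by mt-Cytb at 11100 ± 1500. Next came mt-Nd1 at 6560 ± 1000, mt-Nd5 at 5190 ± 500, mt-Nd6 at 4380 ± 600, mt-Nd2 at 4330 ± 620 and mt-Nd4 at 3570 ± 440. The neighbours mt-Nd6 and mt-Nd2 differed by far less than their SD. The lower range held mt-Co2 at 61.4 ± 15, mt-Co3 at 57.4 ± 14 and mt-Atp6 at 54.9 ± 13 CPM per kb, which did not differ beyond their spread. In the other groups the same 3 genes stayed lowest, between 54.7 (mt-Atp6 in Old) and 77.8 CPM per kb (mt-Co2 in Old-Control).

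The 3 low genes were those of the 10 with nearly all of their 50-base windows repeated exactly in annotated nuclear transcripts. A full-length copy alone did not go with a low level, since Gm13340 spans all of mt-Co1, the highest gene, at 97.61% identity. Of all 50-base windows in mt-Co2, 100% were found letter for letter in an annotated nuclear transcript, against 99.9% in mt-Co3 and 99.5% in mt-Atp6. The shares were 62.2% in mt-Nd4, 51.1% in mt-Co1, 8.2% in mt-Nd2, 7.6% in mt-Nd5 and 0% in mt-Nd1, mt-Nd6 and mt-Cytb. With 100-base windows the share of mt-Co1 was 30.8% and those of mt-Co2, mt-Co3 and mt-Atp6 were 99.5%, 99.9% and 99.5%. Of the 3 rows outside the 10 genes, mt-Nd3 (41.5 CPM per kb) and mt-Nd4l (21.9) had 98.0% and 98.8% of their windows shared. The remaining row, mt-Atp8, was as low (26.2 CPM per kb) with 0% shared, and it overlaps mt-Atp6 by 43 bases. The search covered annotated transcripts only, so the stretch of chromosome 1 between Gm10925 and Gm28661, which carries no annotated copy of mt-Atp8, was not searched. The counting of reads that fit several places or several genes is not given in the sources used here, and its part in these levels was not tested. Values of mt-Co2, mt-Co3 and mt-Atp6 are therefore uncertain as measures of the mitochondrial messages. The same limit holds in part for mt-Nd4 and mt-Co1. Only 502 of 1378 bases of mt-Nd4 and 388 of 1545 of mt-Co1 lay in no shared window. Their levels per kilobase, and so their places in the upper range, are uncertain too.

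**Figure D1:**
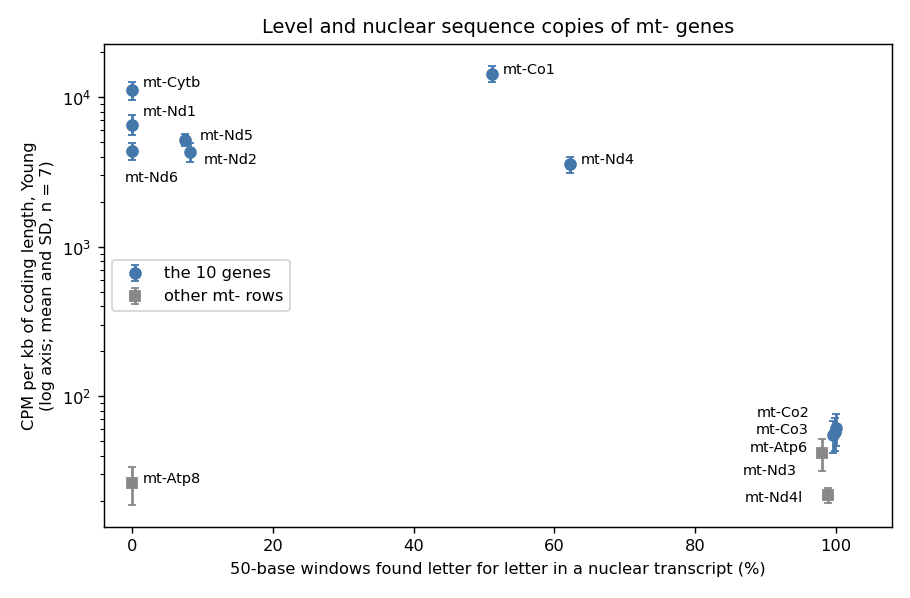
Level in Young RPE (CPM per kilobase of coding length, log axis, mean and SD of 7 libraries) against the percentage of 50-base windows found in an annotated nuclear transcript, for the 10 genes (circles) and the 3 other mt- rows (squares). mt-Co2, mt-Co3 and mt-Atp6 sit at the lower right with 99.5% to 100% shared, while mt-Nd4 and mt-Co1 reached 3570 and 14400 CPM per kb with 62.2% and 51.1% shared.

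Together the 10 genes took overlapping shares of all counts in the 4 groups, before any TMM scaling. Their share of total counts was 5.941% ± 0.738 in Young (SD, n = 7), 5.464% ± 0.352 in Old (n = 4), 5.658% ± 0.737 in Old-Control (n = 3) and 5.29% ± 0.484 in Old-OSK (n = 4). Young libraries ran from 4.915% through a median of 5.91% to 7.351%. Old libraries had 5.707%, 5.388%, 4.998% and 5.762%. Old-Control libraries had 5.511%, 6.458% and 5.006%, and Old-OSK libraries had 4.573%, 5.631%, 5.477% and 5.48%. The 4 ranges overlapped, and the group means lay within the SD of the Young group of each other. This depended on the scaling. After TMM the summed CPM of the 10 genes ran from 51080 to 73090 in Young and from 49400 to 55910 in Old. They ran from 51710 to 58710 in Old-Control and were 47030, 51360, 51030 and 48410 in Old-OSK. Young libraries with the letter M (5.734% to 5.984%) lay inside the range of those without it (4.915% to 7.351%).

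Of the complex I genes, mt-Nd5, a proton-pumping subunit, had the largest difference between Young and Old-OSK. Its CPM in Young ran from 8374 through a median of 9629 to 10740. In Old it was 8456, 7321, 6949 and 6913, in Old-Control 8198, 6176 and 7218, and in Old-OSK 5285, 5715, 6060 and 5612. Every Old-OSK library lay below every library of the 3 other groups. Old libraries overlapped Young in 1 of 4 cases.

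mt-Nd6, the complex I gene on the opposite strand, followed a like order. Young libraries ran from 1763 through a median of 2333 to 2619 CPM. Old libraries had 1967, 2084, 1714 and 1714, Old-Control libraries 1872, 1684 and 1801, and Old-OSK libraries 1410, 1477, 1525 and 1522. Here too all 4 Old-OSK libraries lay below all others. How many genes of the whole count table do so was not counted.

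The pumping subunits mt-Nd2 and mt-Nd4 were lower in Old-OSK than in Young to a lesser degree. mt-Nd2 ran from 3738 through 4392 (median) to 5480 CPM in Young, and was 4159, 3624, 3113 and 3762 in Old, 4273, 3762 and 3252 in Old-Control, and 3236, 3307, 3303 and 3034 in Old-OSK. Old-OSK lay below all Young libraries but overlapped Old and Old-Control. As for mt-Nd6, the share of all genes that separate in this way was not counted. mt-Nd4 ran from 3923 through 4979 (median) to 5599 CPM in Young, and was 3769, 4456, 3718 and 4003 in Old, 4226, 4003 and 3986 in Old-Control, and 3174, 4019, 3825 and 3355 in Old-OSK. For mt-Nd4, 3 of 4 Old-OSK libraries lay below all Young libraries.

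mt-Nd1, which sits where ubiquinone binds complex I, did not share this order. Its mean CPM was 6280 ± 1000 in Young, 5313 ± 551 in Old, 5828 ± 888 in Old-Control and 5467 ± 187 in Old-OSK (SD, n = 7, 4, 3 and 4). Young ran from 4629 to 7644 CPM, so that it enclosed all libraries of the 3 aged groups.

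mt-Cytb, the cytochrome b of complex III, ran from 10180 through a median of 13010 to 15230 CPM in Young. Old libraries had 11660, 11790, 10790 and 11400 CPM, Old-Control libraries 12680, 11270 and 11000, and Old-OSK libraries 9323, 10440, 10730 and 10060. Old-OSK lay below all Old and Old-Control libraries but overlapped Young. Again the share of all genes that separate in this way was not counted.

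mt-Co1 ran from 18390 through a median of 22170 to 26800 CPM in Young. Old libraries had 20350, 19430, 18280 and 21750 CPM, Old-Control libraries 21770, 22770 and 19200, and Old-OSK libraries 19130, 20580, 20150 and 19120. All 4 groups overlapped.

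The other complex IV genes and mt-Atp6, the proton channel subunit of complex V, had mean levels of at most 53.23 CPM. mt-Co2 was 41.98 ± 10.1 CPM in Young, 49.36 ± 5.17 in Old, 53.23 ± 1.75 in Old-Control and 49.03 ± 9.53 in Old-OSK. mt-Co3 was 45 ± 11.2, 50.96 ± 7.05, 52.92 ± 8.66 and 52.48 ± 10.9 CPM in the same order, and mt-Atp6 37.37 ± 8.9, 37.28 ± 5.56, 45.25 ± 6.53 and 40.88 ± 5.47. The ranges of these genes overlapped among the groups. Within Young their SD as a percentage of the mean was 24.2% for mt-Co2, 25% for mt-Co3 and 23.8% for mt-Atp6, against 9.65% for mt-Nd5.

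**Figure D2:**
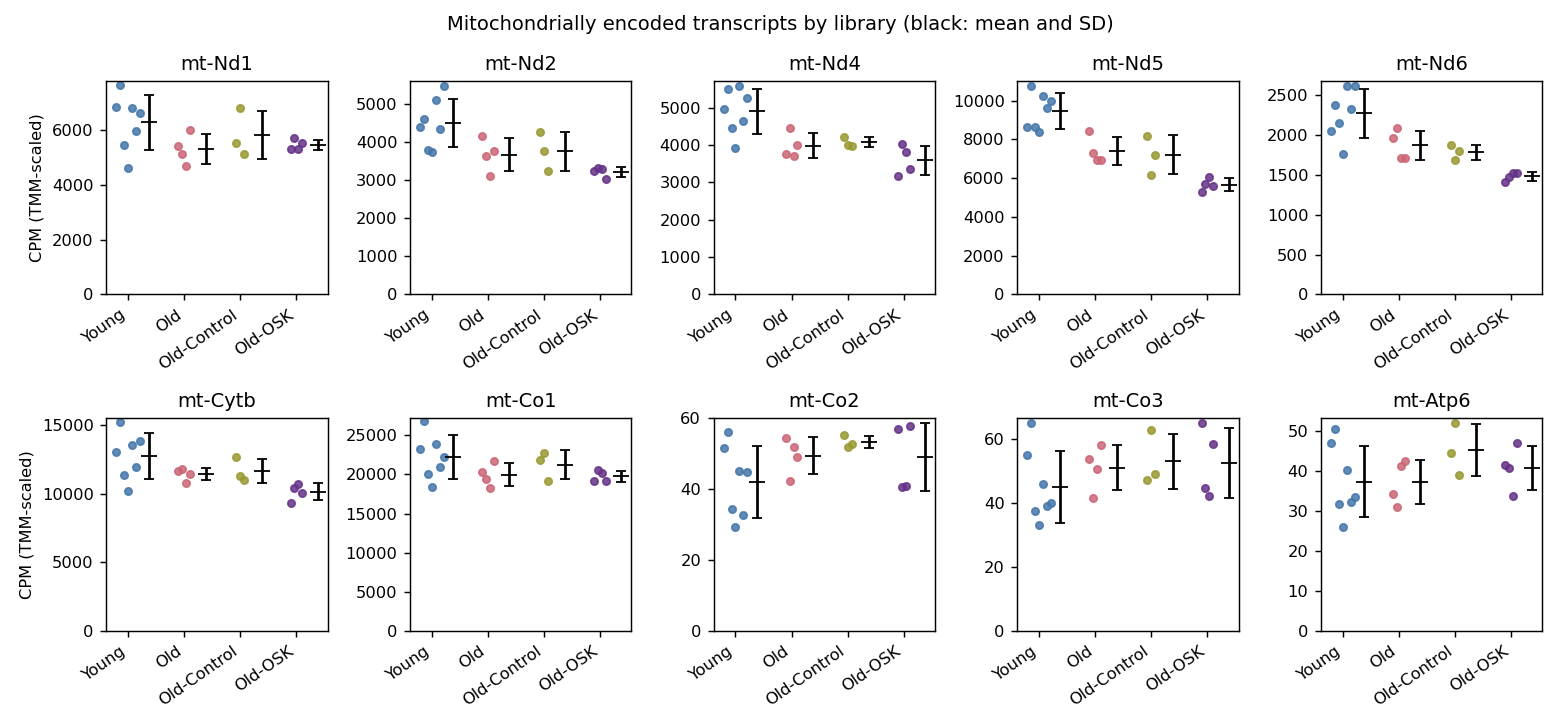
CPM after TMM scaling of each of the 10 genes by library, with the mean and SD of each group (7 Young, 4 Old, 3 Old-Control and 4 Old-OSK libraries). The Old-OSK points of mt-Nd5 (5285 to 6060) and mt-Nd6 (1410 to 1525) lie below those of every other group. The share of all genes that do so was not counted.

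The comparison of Old with Young asked what differed with age where no vector is named. The letter M was not balanced between them, with 3 of 7 Young and 0 of 4 Old libraries carrying it. It called 9.56% of the 15944 genes tested (edgeR's quasi-likelihood test, Benjamini-Hochberg adjusted p under 0.05) and 0 of the 10 mitochondrial genes, although all 10 passed the low-count filter. Log2 fold changes were below 0 in 7 genes and above 0 in mt-Co2 (0.23) and mt-Co3 (0.18). Their median was -0.20, against 0 over all genes tested. mt-Nd5 had the lowest value, -0.35 (SE 0.14, 95% interval -0.65 to -0.06, adjusted p = 0.108 by edgeR), and its means were 7410 CPM in Old and 9471 in Young. mt-Nd4 and mt-Nd2 were at -0.30 each (adjusted p = 0.139 and 0.168 by edgeR) and mt-Nd6 at -0.28 (adjusted p = 0.125). These 4 complex I genes were the ones of the 10 with an unadjusted p under 0.05 by edgeR, as were 4619 of all 15944 genes tested. By DESeq2 mt-Nd5 (adjusted p = 0.0132) and mt-Nd4 (0.0276) passed. Among libraries without the letter M, mt-Nd5 was at -0.29 (adjusted p = 0.355 by edgeR). In this comparison 0 of 10 RPE markers and 0 of 11 rod markers passed (medians -0.31 and 1.36), and 5 of 7 immune markers were higher. Their part in the mitochondrial values was not tested.

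The comparison of Old-OSK with Old-Control asked what the OSK vector added to tTA alone. It called 0.728% of genes with edgeR, and 0 of the 10 with edgeR and with DESeq2. At an unadjusted p under 0.05 edgeR gave 4194 genes and 0 of the 10. All 10 log2 fold changes were below 0, from -0.34 to -0.01, with a median of -0.16 against -0.03 over all genes. mt-Nd5 was at -0.34 (SE 0.17, 95% interval -0.70 to 0.01), mt-Nd6 at -0.27 (SE 0.14, -0.57 to 0.03) and mt-Cytb at -0.20 (SE 0.18, -0.59 to 0.19), with adjusted p-values of 0.205, 0.244 and 0.533 by edgeR. In these 3 genes all 4 Old-OSK libraries lay below all 3 Old-Control libraries. How many of all genes separate these groups in the same way was not counted. Without Old-Control replicate 2 the comparison called 2881 genes in place of 116, still 0 of the 10, mt-Nd5 was at -0.47 (adjusted p = 0.0562 by edgeR), and mt-Nd1 and mt-Co3 were above 0 (0.01 and 0.11). With the replicate number as a block it called 461 genes and 0 of the 10. Only 1 Old-Control library lacks the letter M, and no comparison among such libraries was made. The RPE markers had a median of -0.99 (0 of 10 passed) and the rod markers one of -0.16 (0 of 11), and their part was not tested.

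Old-Control against Old, the comparison for the tTA vector itself, called 0% of genes with edgeR and with DESeq2. At an unadjusted p under 0.05 edgeR gave 596 genes and none of the 10. Log2 fold changes of the 10 lay between -0.07 (mt-Nd6) and 0.28 (mt-Atp6), and the lowest adjusted p was 0.9.

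Old-OSK against Young and Old-OSK against Old were added after the values had been seen. The former shares its Young libraries with the comparison for age, and the latter shares Old and Old-OSK libraries with the comparisons above. Old-OSK against Young called 46.4% of all genes in either direction, 25.1% as higher and 21.3% as lower. It called 4 of the 10 mitochondrial genes, all complex I genes and all lower. Reads counted on mt-Nd6 can come from either strand, and whether its call is separate from that of mt-Nd5 was not tested. mt-Nd5 fell by 0.74 on the log2 scale (SE 0.14, 95% interval -1.04 to -0.44, adjusted p = 0.000863 by edgeR), from a mean of 9471 to 5668 CPM, and was lower in 4 of 4 libraries than in any Young library. mt-Nd6 fell by 0.62 (SE 0.12, -0.87 to -0.36, adjusted p = 0.000911 by edgeR), from 2274 to 1483 CPM, also without overlap. Here too the share of all genes without overlap was not counted. mt-Nd2 fell by 0.48 (SE 0.14, adjusted p = 0.0102 by edgeR) and mt-Nd4 by 0.45 (SE 0.13, adjusted p = 0.0107).

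The other 6 genes did not pass in that comparison. mt-Cytb was at -0.33 (adjusted p = 0.0863 by edgeR, 0.00251 by DESeq2), mt-Nd1 at -0.20 (95% interval -0.52 to 0.12) and mt-Co1 at -0.17 (-0.53 to 0.19). mt-Co2, mt-Co3 and mt-Atp6 were at 0.22, 0.22 and 0.13. The median of the 10 was -0.26, against 0.06 over all genes tested. Among libraries without the letter M, mt-Nd5 (-0.72, adjusted p = 0.0127 by edgeR) and mt-Nd6 (-0.55, adjusted p = 0.0166) passed, while mt-Nd2 (-0.37, adjusted p = 0.0808) and mt-Nd4 (-0.40, adjusted p = 0.104) did not. When libraries were scaled by their totals alone, which moved the median of all genes from 0.06 to 0.23, mt-Nd5 was at -0.57 (adjusted p = 0.00163 by edgeR) and mt-Nd4 at -0.28 (adjusted p = 0.0791).

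In the same comparison 8 of 10 RPE markers were lower, among them Rpe65, the retinoid isomerase (-1.62, adjusted p = 0.000377 by edgeR), and 10 of 11 rod markers were higher, among them Sag (2.56, adjusted p = 0.0113). Of 7 immune markers 6 were higher and 1 was lower, and Lyz2 had a log2 fold change of 3.43. Every Old-OSK library had a lower RPE marker sum (at most 29750 CPM) than every Young library (at least 39320). The part of these cells in the mitochondrial values was not tested.

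Old-OSK against Old called 0.84% of genes and 0 of the 10 with edgeR. At an unadjusted p under 0.05 edgeR gave 2499 genes, with 2 of the 10 among them. mt-Nd5 was at -0.39 (SE 0.16, 95% interval -0.72 to -0.06, adjusted p = 0.246 by edgeR) and mt-Nd6 at -0.33 (SE 0.13, -0.61 to -0.05, adjusted p = 0.235). Old-OSK libraries lay below all Old libraries for mt-Nd5, mt-Nd6 and mt-Cytb. The share of all genes that separate in this way was again not counted. By DESeq2 mt-Nd5 passed (-0.40, adjusted p = 0.0313). In the same comparison the RPE markers had a median of -0.92 (9 of 10 below 0) and the rod markers one of 0.77 (11 of 11 above 0), with 0 of either called, and their part was not tested.

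**Figure D3:**
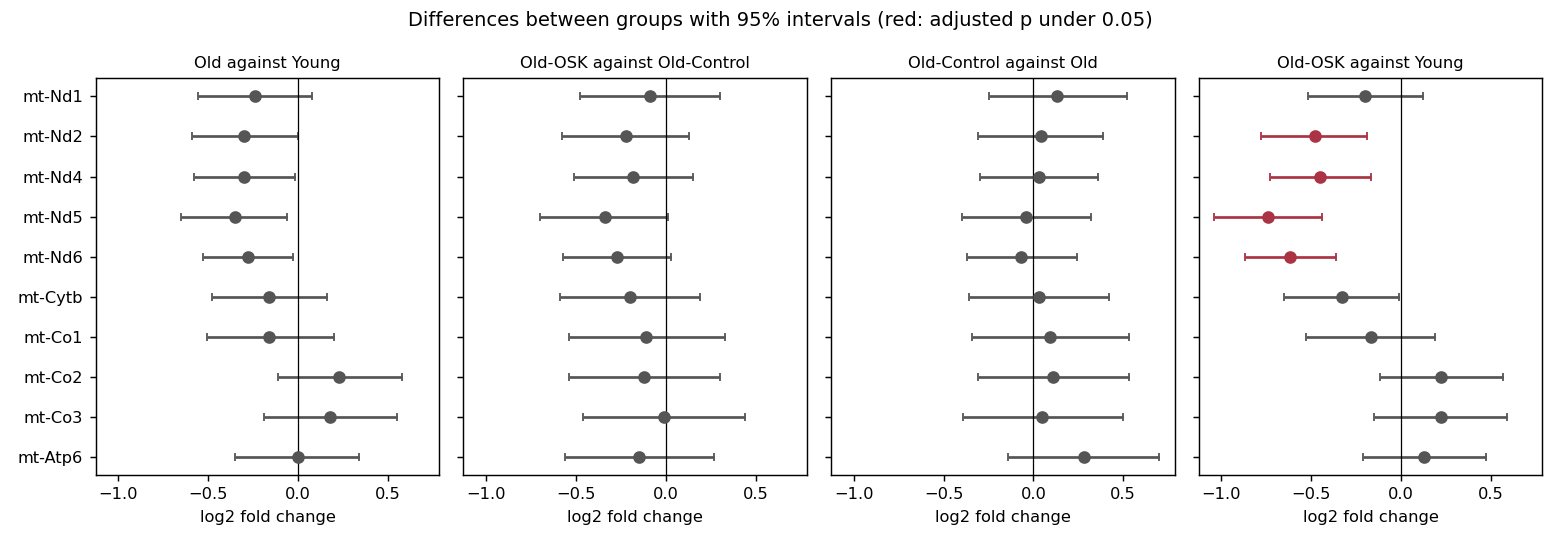
Log2 fold change of each of the 10 genes in all comparisons except Old-OSK against Old, which is not drawn. Bars are 95% intervals from edgeR's quasi-likelihood fit, and 0 is marked. Only mt-Nd5, mt-Nd6, mt-Nd2 and mt-Nd4 in Old-OSK against Young had an adjusted p under 0.05.

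Shares within the 10 genes do not depend on the scaling of libraries. Complex I genes held 42.27% to 45.34% of the counts of the 10 in Young (mean 43.91% ± 1.17, SD, n = 7). They held 42.5%, 41.92%, 40.87% and 40.22% in Old, 41.07%, 39.62% and 41.33% in Old-Control, and 39.15%, 39.36%, 39.26% and 39.38% in Old-OSK. The Old-OSK libraries lay within 1 percentage point of each other and below every other library. Complex IV genes, which are almost all mt-Co1 by count, held 33.66% to 36.87% in Young, 36.17% to 39.23% in Old, 37.25% to 40.4% in Old-Control and 39.65% to 40.94% in Old-OSK. Complex III (mt-Cytb) held a mean of 20.35%, 21.25%, 20.92% and 20.49% in these groups, with SDs of 0.433, 0.702, 0.909 and 0.529. Single genes moved accordingly: mt-Nd5 held 15.2% of the counts of the 10 in Young and 11.5% in Old-OSK, and mt-Co1 held 35.5% and 39.9%. Such shares add up to a fixed total, so a higher share is not a higher level. The mean of mt-Co1 was 22220 CPM in Young and 19750 in Old-OSK, and 2.11% of all counts in both.

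Old-Control replicate 2 and Old replicate 4, which had the lowest RPE marker sums of their groups, also had the lowest complex I shares of their groups (39.62% and 40.22%). They came closest to the Old-OSK libraries. Old-Control replicate 2 also had the highest rod marker sum of all 18 libraries, 20250 CPM. Without it the mean complex I share of Old-Control was 41.2%, in place of 40.67%. Young and Old-OSK did not follow this order. Young replicate 3 had the lowest RPE sum of its group (39320 CPM) and a complex I share of 43.78%. Old-OSK replicate 2 had the lowest RPE sum of its group (15150 CPM) and a share of 39.36%. Old-OSK replicate 1 had the highest RPE sum of its group (29750 CPM) and the lowest share (39.15%). The part of cell content in these shares was not tested.

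**Figure D4:**
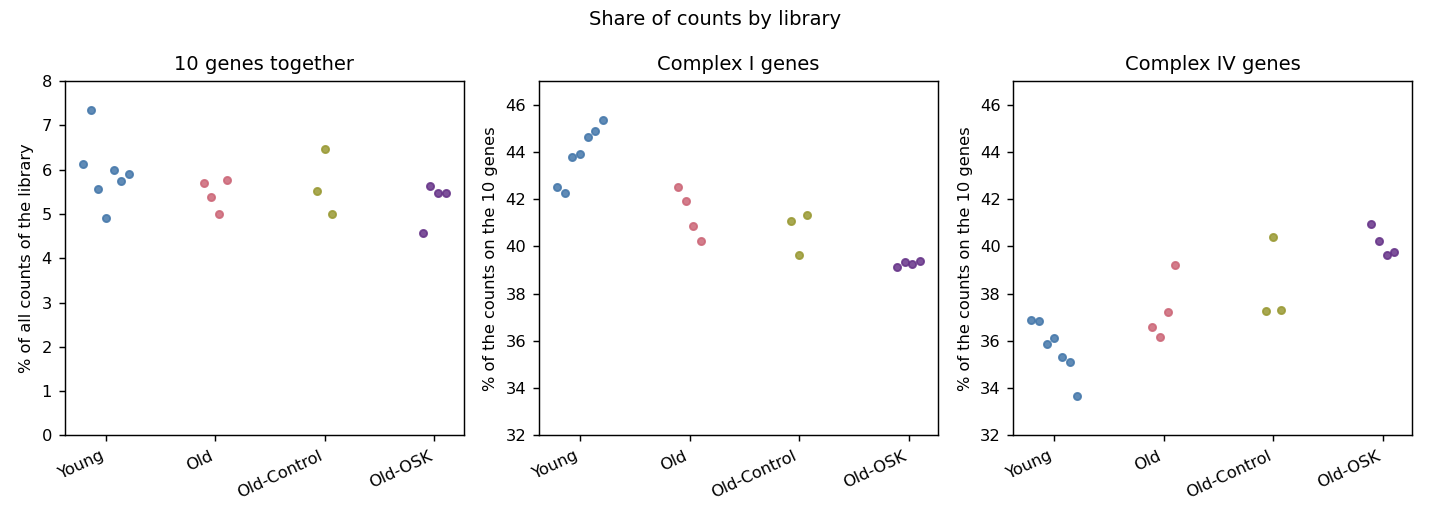
Share of counts by library: the 10 genes as a percentage of all counts (left, axis from 0), and complex I and complex IV genes as percentages of the counts on the 10 genes (middle and right, axes from 32% to 47%). The share of all counts overlaps among groups, while complex I runs from 42.27% to 45.34% in Young and from 39.15% to 39.38% in Old-OSK.

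Ratios of counts inside a library showed which complex I genes moved apart. mt-Nd5 over mt-Nd1 was 1.53 ± 0.17 in Young (range 1.26 to 1.81), 1.40 ± 0.18 in Old, 1.26 ± 0.31 in Old-Control and 1.04 ± 0.069 in Old-OSK. Its values were 0.996, 1, 1.14 and 1.01 in the 4 Old-OSK libraries, below all 7 Young libraries. Old replicate 4 (1.15) and Old-Control replicate 2 (0.905) were again the lowest of their groups, and the latter lay below the Old-OSK libraries. mt-Nd6 over mt-Nd1 was 0.366 ± 0.042, 0.355 ± 0.051, 0.312 ± 0.057 and 0.272 ± 0.012 in the same order. By contrast mt-Co1 over mt-Nd1 was 3.56 ± 0.21, 3.76 ± 0.11, 3.67 ± 0.30 and 3.62 ± 0.14, and mt-Nd6 over mt-Nd5 was 0.240 ± 0.018, 0.253 ± 0.022, 0.250 ± 0.023 and 0.262 ± 0.0086, so that these pairs kept overlapping ranges in all 4 groups. Along mitochondrial DNA, genes called in Old-OSK against Young lay among genes that were not called. Whether their fold changes differ from each other, or go with position, was not tested. mt-Nd2 (chrM:3914-4951), which fell in Old-OSK against Young, lies between mt-Nd1 (chrM:2751-3707) and mt-Co1 (chrM:5328-6872), which did not pass. mt-Cytb (chrM:14145-15288), which did not pass with edgeR, lies beyond mt-Nd5 (chrM:11742-13565).

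**Figure D5:**
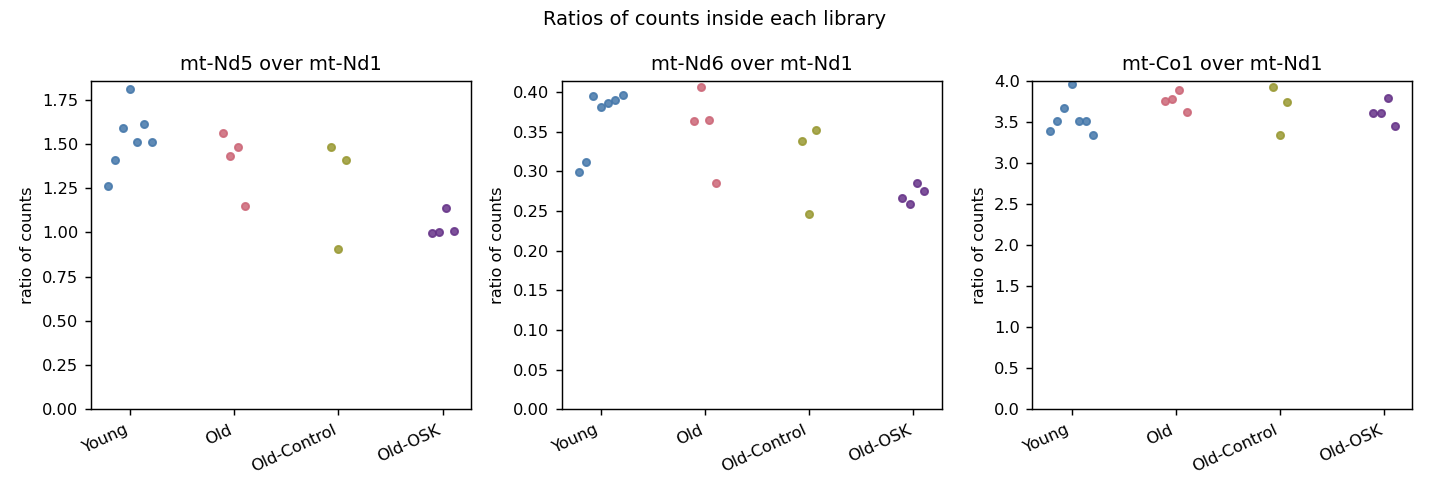
Ratios of counts inside each library for mt-Nd5 over mt-Nd1, mt-Nd6 over mt-Nd1 and mt-Co1 over mt-Nd1, by group; points are libraries and axes start at 0. The 4 Old-OSK libraries have mt-Nd5 over mt-Nd1 ratios of 0.996 to 1.14, below the Young range of 1.26 to 1.81, while mt-Co1 over mt-Nd1 overlaps among all groups.

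Correlations of log2 CPM over all 18 libraries, which share groups and cell content, are given as a description. mt-Nd1 went with mt-Co1 (Pearson r = 0.95, Spearman rho = 0.92, and 0.94 after removal of the group means), and mt-Nd5 with mt-Nd6 (r = 0.94, rho = 0.96, 0.74 after removal). The 3 low genes went together, with r = 0.87 for mt-Co2 and mt-Co3 and 0.86 for mt-Atp6 and mt-Co3. Lower values were those of mt-Nd1 and mt-Nd5 (0.44, and 0.25 after removal of the group means) and of mt-Co3 and mt-Nd5 (-0.32, and 0 after removal). The genes did not form separate sets: after removal of the group means mt-Nd1 reached 0.78 with mt-Atp6 and 0.72 with mt-Co3, from 0.56 and 0.41 before.

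Most subunits of these complexes are encoded in the nucleus. In Old against Young, 0 of 36 nuclear complex I genes and 0 of 12 complex IV genes passed, and 30 and 11 of them had log2 fold changes above 0 (medians 0.08 and 0.20). Among all nuclear lists 2 genes passed. Atpif1, the inhibitor of ATP synthase, rose by 0.60 (adjusted p = 0.0426 by edgeR), and Grsf1, an RNA-binding protein of mitochondrial RNA granules, fell by 0.39 (adjusted p = 0.0233). Neither call held in every run. Both held with the other scalings and filters and with DESeq2. Without Old replicate 4 they were at 0.36 (adjusted p = 0.253 by edgeR) and -0.35 (adjusted p = 0.107), with the letter M as a covariate at 0.55 (0.107) and -0.33 (0.0738), and among libraries without M at 0.53 (0.174) and -0.29 (0.19). With 1 of the 11 libraries left out at a time, Atpif1 lost its call in 9 cases and Grsf1 in 5.

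In Old-OSK against Old-Control, 0 of 36 nuclear complex I genes passed and all were at or below 0, with a median of -0.18. Ndufab1, the acyl carrier subunit of complex I (-0.35), and Ppargc1a, a coactivator of mitochondrial biogenesis (-0.57), each had an adjusted p of 0.0588 by edgeR. Lrpprc, which stabilises mitochondrial messages, was at -0.38 (adjusted p = 0.0841 by edgeR) and Grsf1 at -0.37 (adjusted p = 0.0893). Without Old-Control replicate 2, 7 of the 36 complex I genes were called lower, where 1874 of all 16114 genes tested were, and Ppargc1a (-0.78, adjusted p = 0.00333 by edgeR) and Grsf1 (-0.47, adjusted p = 0.0241) passed.

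In Old-OSK against Young, where the mitochondrial complex I genes mt-Nd2, mt-Nd4, mt-Nd5 and mt-Nd6 fell, 6 of 36 nuclear complex I genes rose and 2 fell. Both shares are below those over all genes tested, 25.1% higher and 21.3% lower, against which the counts of the lists that follow are also to be read. Ndufa6 rose by 0.46 and Ndufb8 by 0.29, and Ndufs1, the large iron-sulfur subunit, fell by 0.35 (adjusted p = 0.0034, 0.00333 and 0.000987 by edgeR). Of 12 nuclear complex IV genes 6 rose and 0 fell, among them Cox7a1 (1.28), Cox6b1 (0.60) and Cox6c (0.56). Of 9 complex III genes 3 rose and 1 fell, of 16 complex V genes 4 rose and 1 fell, and Atpif1 rose by 1.09 (adjusted p = 0.000235 by edgeR). Of 4 genes of complex II, which has no mitochondrially encoded subunit, 0 rose and 2 fell. Scaled by library totals alone, the counts became 18 higher and 0 lower for complex I and 11 higher and 0 lower for complex IV. Among libraries without the letter M they were 0 higher and 1 lower for complex I and 3 higher and 0 lower for complex IV.

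Of 21 genes of mitochondrial RNA processing and stability, 1 rose and 6 fell in that comparison, the latter near the 21.3% of all genes called lower. Grsf1 fell by 0.62 (adjusted p = 0.000222 by edgeR), Supv3l1, the helicase of the RNA degradosome, by 0.45 (adjusted p = 0.00188) and Lrpprc by 0.43 (adjusted p = 0.002). Of 17 genes of mitochondrial DNA upkeep and transcription, 3 fell, a share below that of all genes: Mterf3 (by 0.32), Polg, the DNA polymerase (by 0.34), and Tfam, which packs and transcribes mitochondrial DNA (by 0.27, adjusted p = 0.0192 by edgeR). Of 12 biogenesis regulators 2 rose and 3 fell, and Ppargc1a fell by 0.88 (adjusted p = 5.89e-05 by edgeR), from 74.72 to 40.59 CPM. With library totals alone, 2 of the 21 RNA processing genes and 0 of the 17 upkeep genes were called lower, and Tfam was at -0.11 (adjusted p = 0.377 by edgeR).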

How the data were processed

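The authors deposited raw counts per gene in 1 table for 18 libraries. Per the submitters' processing notes, STAR 2.7.1a and featureCounts 1.6.2 were used, and GRCm38 (mm10) is among the builds listed. The annotation, strand setting and treatment of reads that fit several places are not given in the sources used here. Every column was matched to a library by title.

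Counts were filtered with filterByExpr (minimum count 10, minimum total 15; 15944 genes left) and scaled by TMM in edgeR 4.0.16 (R 4.3.3). The 4 group means were fitted to all 18 libraries with the quasi-likelihood test, and Benjamini-Hochberg adjustment ran over all genes tested. CPM are library-scaled counts after TMM. The scripts were tested on simulated data. PCR reads carry no molecular identifiers, so counting error is a lower limit. DESeq2 1.42.0 and other scalings, filters and sets of libraries were alternatives. No replicates were merged, since they differed beyond counting noise (lowest chi-square per gene 21.22). Deviations of Old-OSK and Old-Control libraries of the same number correlated with r = 0.103, 0.421 and 0.339 across genes. Old-Control and Old libraries of the same number gave 0.197, -0.189 and 0.359. Whether equal numbers mark pairs is not known. The main fit therefore did not pair libraries, and the replicate number as a block was an alternative run.

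The 10 genes, the nuclear lists and the marker lists were chosen with earlier results of these data known. From each nuclear list, genes named were among the 3 with the lowest p in a comparison. Likeness was ranked by the Pearson correlation with the mean log2 CPM (prior count 2) of the 10 genes, among nuclear genes of mean log2 CPM of at least 5, and the 5 highest and 5 lowest were named. Sequences and coordinates are from GENCODE M21 (GRCm38), and windows of 50 and 100 bases were searched in transcripts of all other chromosomes. No row for the nuclear copies was analysed here.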

Additional observations from a re-analysis of the deposited data

Results flagged for a closer look

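The share of total counts on the 10 genes in Old-OSK replicate 1 was 4.573%, while the other 3 Old-OSK libraries lay between 5.477% and 5.631%. Its gap to the nearest library was 0.854 of the range of the group, above Dixon's critical value for 4 libraries. It was 1 of 45 groups of values examined in this way, and chance alone marks about 1 in 20. In the same library mt-Nd4 (3174 CPM), mt-Nd5 (5285 CPM), mt-Nd6 (1410 CPM) and mt-Cytb (9323 CPM) were the lowest of the group, and its complex I share (39.15%) was close to those of the other 3. Without it the mean share of total counts in Old-OSK was 5.529%, in place of 5.29%.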

How the results depend on the processing

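In Old against Young, 9 of the 10 genes kept the sign of their log2 fold change under every alternative run, and mt-Atp6, at 0, lay between -0.07 and 0.09. In Old-OSK against Young mt-Atp6 was at -0.04 among libraries without the letter M. In Old-OSK against Old-Control, mt-Co3 was at 0.04 with library totals only. In Old-OSK against Old, mt-Co1 and mt-Co2 were at 0.06 with library totals only, and mt-Co3 at -0.05 among libraries without M. With 1 library left out at a time, signs changed only for values near 0: mt-Nd1 (-0.18 to 0.01) and mt-Co3 (-0.16 to 0.11) in Old-OSK against Old-Control, mt-Nd2 (-0.06 to 0.13), mt-Nd5 (-0.15 to 0.06), mt-Co3 (-0.08 to 0.13) and mt-Cytb (-0.04 to 0.07) in Old-Control against Old, and mt-Nd1 (-0.01 to 0.11), mt-Co1 (-0.05 to 0.03), mt-Co2 (-0.13 to 0.07) and mt-Co3 (-0.10 to 0.12) in Old-OSK against Old. The cause was not tested.

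The number of these genes called was 0 in Old against Young except with DESeq2 (2), and 0 in Old-OSK against Old except with DESeq2 (1). In Old-OSK against Young it was 4 with each library left out in turn, and 2 among libraries without M, with the replicate block, and among the same paired libraries without the block. With the block mt-Nd2 was at -0.38 (adjusted p = 0.0501 by edgeR) and mt-Nd4 at -0.41 (adjusted p = 0.0557). The median over the 10 genes in that comparison was -0.09 with library totals only.

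Counts of all genes called moved more. Old against Young called 2452 with DESeq2, 600 with M as a covariate, and 191 among libraries without M and among the paired libraries without the block. It called 0 with the replicate block, where libraries of equal number gave r from -0.193 to 0.144 and pairing is not known. With 1 library left out it called 393 (without Old replicate 4) to 2140. Old-OSK against Old-Control called 178 with library totals only, 1640 with DESeq2, 58 with M as a covariate, 2 with the 2 groups alone, 461 with the replicate block, 990 among the paired libraries without it, and 13 (without Old-Control replicate 1) to 2881 (without Old-Control replicate 2). Old-OSK against Old called 446 with DESeq2, 74 with the 2 groups alone and among the paired libraries without the block, 65 among libraries without M, 1 with the replicate block, and 50 to 1045 (without Old replicate 4). With library totals only, 76.4% of calls in Old against Young were higher (56.5% after TMM), 71.8% in Old-OSK against Young (54%) and 66.3% in Old-OSK against Old-Control (56%, and 68.8% with median-ratio size factors). The block changed no call of the 10 genes in the other comparisons. Depth was not limiting: the lowest count of any of the 10 genes was 594.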

Other observations

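Among 5649 nuclear genes whose mean log2 CPM reached 5, those whose log2 CPM followed the mean of the 10 mitochondrial genes most closely over the 18 libraries were Eny2 (Pearson r = 0.79, Spearman rho = 0.80), Calm2 (0.78 and 0.74), Rabggtb (0.72 and 0.77), B230118H07Rik (0.72 and 0.76) and Gpm6b (0.71 and 0.77). The lowest values were those of N4bp1 (-0.78 and -0.82), Brd1 (-0.74 and -0.76), Ccdc6 (-0.70 and -0.80), Irgm1 (-0.69 and -0.72) and Prep (-0.69 and -0.79). Without the 2 libraries farthest from the median, r was 0.73 for Eny2 and -0.79 for N4bp1. After removal of the group means r was 0.76 for Eny2 and -0.72 for N4bp1. These genes are the extremes of many, so their values are given as a description without a test.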
